A study of Mus musculus with 6 samples.

Results

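The SLC25 genes encode the mitochondrial carrier family, and their messenger RNA levels were compared between forskolin-treated and vehicle-treated mouse hepatic stellate cells. A gene was taken as a member when its symbol in the deposited count table was Slc25a followed by a number. The rule found 47 members among the 24940 genes of the table. It used no measured value, but the family was chosen with earlier results of these data known.

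Each SLC25 carrier is a small protein that crosses the inner mitochondrial membrane several times and alternates between a state open to the cytosol and a state open to the matrix. Most members exchange one solute for another, so the family sets which nucleotides, phosphate, carboxylates, amino acids, cofactors and metal ions enter or leave the matrix. A few members have moved to other membranes, such as the peroxisomal carrier Slc25a17 and the outer membrane protein Slc25a46.

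Polyadenylated RNA was sequenced from primary hepatic stellate cells, which are liver pericytes that store vitamin A, of female wild-type C57BL/6JBomTac mice. The Fsk group received 5 µM forskolin, a plant compound that switches on adenylyl cyclase, the enzyme that makes cyclic AMP, and the Ctrl group received the vehicle dimethyl sulfoxide at a 1:1000 dilution. Treatment began 2 days after isolation, the medium was changed after 3 h, and the cells were kept for another 21 h, for 24 h in all. Each group had 3 libraries, A, B and C, with no other difference between groups in the labels. Nothing in the labels says that libraries of 1 group came from different mice or dishes. All p-values thus reflect library-to-library spread alone, and that spread may be technical.

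The libraries held 10890193 to 12954310 counts in the Fsk group and 13001358 to 15090262.5 counts in the Ctrl group, and the members took 0.277% of Fsk counts and 0.25% of Ctrl counts. All 10 stellate cell markers were above the filter on low counts, and 5 rose, 2 fell and 3 did not pass the test. Their summed level was 1790 to 1839 CPM in Fsk libraries and 1800 to 1965 CPM in Ctrl libraries, with Gfap at 0.954 CPM in Fsk. Reln, which rose, led this sum at 927 CPM in Fsk and 831 CPM in Ctrl. The 2 that fell were Des, at 182 CPM in Fsk and 323 CPM in Ctrl, and Pdgfrb, at 282 CPM in Fsk and 381 CPM in Ctrl. CPM is a gene's count relative to its library size, which was scaled by TMM (trimmed mean of M-values) factors. Markers of other liver cells also differed. The 10 sinusoidal endothelial markers (7 tested, 1 rose, 4 fell) summed to 110.0 to 113 CPM in Fsk and 224 to 233 CPM in Ctrl. Flt4, at 79.7 CPM in Fsk and 195 CPM in Ctrl, made up almost all of this difference. Kdr (1.1 CPM in Fsk and 3.2 CPM in Ctrl), Lyve1 (3.3 CPM and 5.1 CPM) and Tek (1.5 CPM and 2.5 CPM) also fell. Stab2 was the marker that rose, at 2.53 CPM in Fsk and 0.955 CPM in Ctrl. Pecam1 was at 0.412 CPM in Fsk and 0.379 CPM in Ctrl. The 6 cholangiocyte markers (3 tested, 2 rose, 1 fell) summed to 392.1 to 427 CPM in Fsk and 137 to 152 CPM in Ctrl. Spp1, at 372 CPM in Fsk and 72.5 CPM in Ctrl, set this difference, whereas Krt19 was lower, at 35.1 CPM in Fsk and 71.3 CPM in Ctrl (edgeR adjusted p = 4.76e-09), and Krt7, Epcam and Cftr were under 0.4 CPM in both groups. The 11 hepatocyte markers (3 tested, 2 rose, 0 fell) summed to 361 to 443 CPM in Fsk and 304 to 317 CPM in Ctrl, while Serpina1a, Fgb and Otc were at 0 in all 6 libraries. Almost all of that sum was Trf, at 219.8 CPM in Fsk and 176 CPM in Ctrl, and Ass1, at 175 CPM in Fsk and 129 CPM in Ctrl, and Alb was at 0.0252 CPM in Fsk and 0 in Ctrl. The 10 macrophage markers (3 tested, 2 rose, 1 fell) summed to 37.9 to 39.0 CPM in Fsk and 34.7 to 36.8 CPM in Ctrl, with Marco at 0. These sums hold opposite changes. Lyz2 fell, at 4.22 CPM in Fsk and 10.85 CPM in Ctrl. Csf1r (18.3 CPM in Fsk and 13.2 CPM in Ctrl) and Cd68 (15.8 CPM and 11.2 CPM) rose. The part of these cells in the results below was not tested. In bulk RNA, fewer cells of a type and less RNA per cell cannot be told apart.

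Of the 47 members, 39 had enough counts to be tested and 8 did not. The 8 were Slc25a2, Slc25a18, Slc25a21, Slc25a31, Slc25a34, Slc25a41, Slc25a48 and Slc25a54, none with more than 13 counts in a library. Of all members, 28 were made up only of 50-base stretches found in no other annotated gene, and 5 were under 90% unique (Slc25a5, Slc25a25, Slc25a33, Slc25a36 and Slc25a40). For Slc25a22, Slc25a27 and Slc25a41, all counted among the 28, the deposited transcript had no match. Their longest annotated transcript was checked instead. Over all annotated transcripts of the members, 11 members shared exon bases with another gene. Values of the 5 and of the 11 are less certain. Among those tested, 14 rose and 7 fell at an adjusted p under 0.05 (edgeR's quasi-likelihood test with Benjamini-Hochberg adjustment over 13357 genes), and 18 did not pass. Across all tested genes 49.9% were called, 24.8% as higher and 25.1% as lower. The members' shares were 53.8% called, 35.9% higher and 17.9% lower. Levels of the groups did not overlap for 23 tested members (59.0%), 15 with Fsk higher and 8 with Fsk lower, beside 57.3% of all tested genes, 28.9% with Fsk higher and 28.4% with Fsk lower.

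Changes in the family were close in size to those of all tested genes. The median log2 fold change (Fsk over Ctrl) was 0.10 over the tested members and 0.01 over all tested genes, and the median absolute log2 fold change was 0.19 over the members and 0.22 over all genes. Among called genes that absolute median was 0.42 over the members and 0.40 over all genes. A called change of at least 1.5-fold was seen in 6 of the 39 tested members, beside 15.4% of all tested genes. They were Slc25a27, Slc25a29, Slc25a33, Slc25a35, Slc25a43 and Slc25a45. A called change of at least 2-fold was seen in 1 of the 39, Slc25a27, beside 6.62% of all tested genes. The plot of members by library orders them by fold change and shows how far the libraries of each group lay apart.

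**Figure D1:**
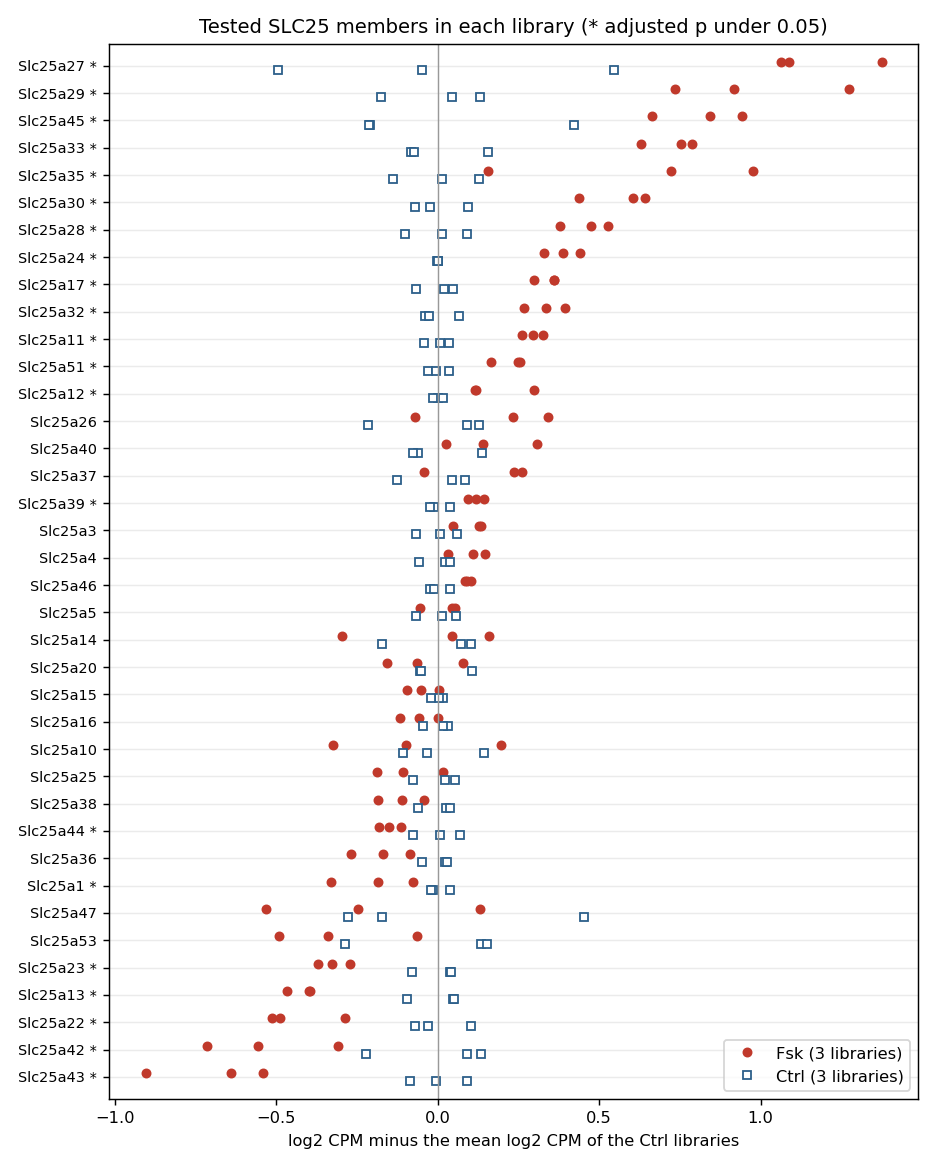
Log2 CPM of tested members in each library (1 member is not shown), minus the mean log2 CPM of the Ctrl libraries, with Fsk as filled circles, Ctrl as open squares and an asterisk for an adjusted p under 0.05. The 14 members that rose stand mostly at the top and the 7 that fell mostly at the bottom, and among the risers Slc25a35 shows the widest spread between Fsk libraries.

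Levels between genes were compared per length, as CPM per kilobase of exon. Carriers that serve oxidative phosphorylation led the family. Slc25a4, the ADP/ATP carrier ANT1, stood at 244 ± 9.75 CPM per kilobase in Fsk and 228 ± 8.14 in Ctrl (SD, n = 3 each). The phosphate carrier Slc25a3 stood at 212 ± 6.89 CPM per kilobase in Fsk and 197 ± 8.80 in Ctrl. Slc25a5, the ADP/ATP carrier ANT2, stood at 193 ± 7.94 CPM per kilobase in Fsk and 191 ± 8.38 in Ctrl. The order of Slc25a3 and Slc25a5 in Ctrl lies within their spread. Slc25a39, the mitochondrial glutathione carrier, came next at 95.4 ± 1.65 CPM per kilobase in Fsk and 87.8 ± 1.95 in Ctrl, clear of the 3 leaders in both groups.

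The whole family summed to 1367, 1347 and 1397 CPM per kilobase in Fsk A, B and C, against 1291, 1260 and 1292 in Ctrl A, B and C. All Fsk sums lay above all Ctrl sums. The 3 leading carriers made up 48.3%, 46.1% and 47.7% of the Fsk sums and 48.2%, 46.8% and 49.5% of the Ctrl sums, so the shares overlapped. Without them the sums were 707, 726 and 731 in Fsk and 669, 670 and 653 in Ctrl, again with no overlap.

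**Figure D2:**
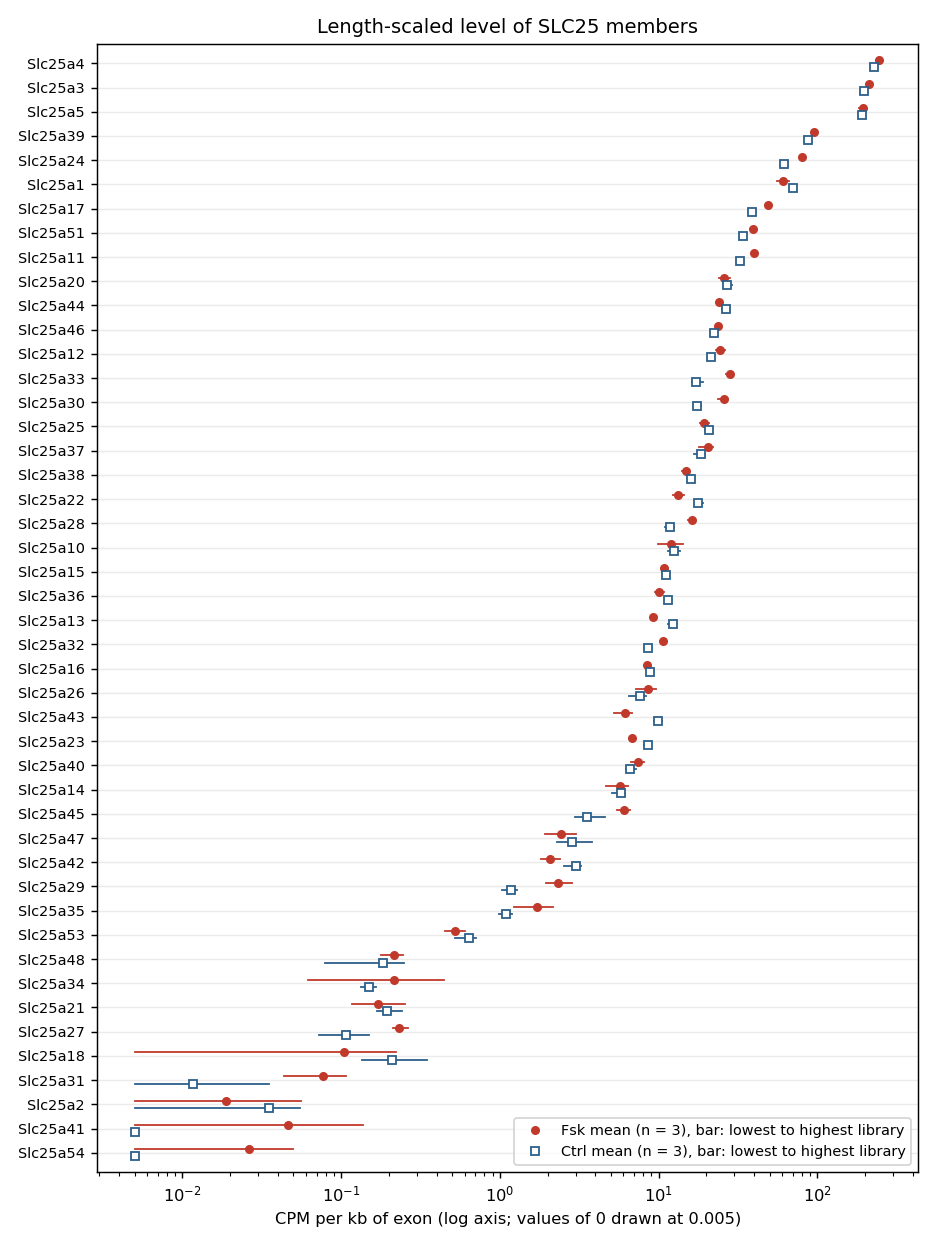
Mean level of members per kilobase of exon on a log axis (1 member is not shown), with Fsk as filled circles, Ctrl as open squares and bars from the lowest to the highest of 3 libraries (values of 0 drawn at 0.005). Slc25a4, Slc25a3 and Slc25a5 stand near 200 CPM per kilobase in both groups, and Slc25a39 follows below 100.

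The members are given below by class of solute, beside 24.8% of all tested genes that rose and 25.1% that fell. No class was tested against these shares. Carriers of adenine nucleotides and phosphate comprised 9 members, of which 6 were tested, 1 rose, 1 fell and 4 did not pass. Slc25a4 had 327, 309 and 335 CPM in Fsk A, B and C, against 307, 291 and 311 CPM in Ctrl A, B and C, with overlapping groups and a log2 fold change of 0.10 (edgeR adjusted p = 0.0775). Slc25a5 had 254, 237 and 256 CPM in Fsk, against 249, 235 and 257 CPM in Ctrl, and the log2 fold change was 0.01 (edgeR adjusted p = 0.82). Only 53.4% of the 50-base stretches of Slc25a5 are unique among annotated transcripts, so its level is uncertain. For Slc25a3, the 324.8, 306 and 324 CPM in Fsk overlapped the 298, 283 and 309 CPM in Ctrl (log2 fold change 0.10, edgeR adjusted p = 0.0612). Leaving out Fsk B brought Slc25a3 and Slc25a4 past the threshold (edgeR adjusted p = 0.0418 and 0.0394), as did leaving out Ctrl C for Slc25a3 (0.0397).

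The calcium-regulated ATP-Mg/phosphate carriers, which exchange ATP-Mg for phosphate and so load or empty the matrix pool of adenine nucleotides, did not move together, with 1 that rose, 1 that fell and 1 that did not pass. Slc25a24 (SCaMC-1) had 260.4, 271 and 282 CPM in Fsk A, B and C, against 208, 207 and 207 CPM in Ctrl A, B and C. Every Fsk library was above every Ctrl library, and the log2 fold change was 0.39 ± 0.04 (SE, edgeR adjusted p = 4.1e-07). Slc25a23 (SCaMC-3) had 22.1, 22.8 and 23.7 CPM in Fsk, against 29.4, 29.4 and 27.1 CPM in Ctrl. All Fsk values were lower, and the log2 ratio of the groups was -0.32 ± 0.08 (SE, edgeR adjusted p = 0.0028). Slc25a25 (SCaMC-2) had 59.7, 63.1 and 68.8 CPM in Fsk, against 70.6, 69.1 and 64.6 CPM in Ctrl. Its groups overlapped (log2 fold change -0.09, edgeR adjusted p = 0.232), and without Fsk C the adjusted p was 0.0452 with a log2 fold change of -0.15. Of its annotated exon bases 4.8% overlap antisense Naif1, which fell by 0.50 on the log2 scale (edgeR adjusted p = 0.00636), and the labels do not say that strand was kept. Of the 50-base stretches of Slc25a25, 89.8% are unique. The untested members of this class were Slc25a31 (ANT4), Slc25a41 and Slc25a54.

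Carriers of di- and tricarboxylates comprised 6 members, of which 5 were tested, 2 rose, 2 fell and 1 did not pass. The malate-aspartate shuttle, which brings cytosolic reducing equivalents into the matrix, uses Slc25a11 and either Slc25a12 or Slc25a13. Slc25a11, the oxoglutarate/malate carrier, had 72.6, 74.4 and 76.1 CPM in Fsk, against 62.1, 61.0 and 58.9 CPM in Ctrl. It was higher in all Fsk libraries (log2 fold change 0.29 ± 0.05 SE, edgeR adjusted p = 0.000171). Slc25a12, the aspartate/glutamate carrier aralar, had 67.4, 67.2 and 76.3 CPM in Fsk, against 62.1, 61.5 and 62.8 CPM in Ctrl. The groups did not overlap and Fsk C stood highest (log2 fold change 0.18 ± 0.06 SE, edgeR adjusted p = 0.018). Without Fsk C the adjusted p was 0.0906 at a log2 fold change of 0.12, and it was 0.0521 without Ctrl A and 0.0652 without Ctrl B. Its paralogue Slc25a13, citrin, had 27.6, 29.0 and 29.0 CPM in Fsk, against 35.8, 39.5 and 39.5 CPM in Ctrl. Citrin was thus lower in every Fsk library (log2 fold change -0.42 ± 0.07 SE, edgeR adjusted p = 0.000125).

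The citrate carrier Slc25a1, which exports citrate for cytosolic acetyl-CoA, averaged 102 ± 8.96 CPM in Fsk and 116 ± 2.67 CPM in Ctrl (SD, n = 3 each). It fell by 0.19 on the log2 scale (edgeR adjusted p = 0.0083, and 0.0515 without Ctrl B). The dicarboxylate carrier Slc25a10 averaged 47.5 ± 8.65 CPM in Fsk and 49.6 ± 4.48 CPM in Ctrl and did not pass (edgeR adjusted p = 0.617). Its Fsk values were 39.6, 46.3 and 56.7 CPM, and without Fsk C, the highest, the log2 fold change was -0.21 (edgeR adjusted p = 0.0326). Slc25a21, the oxodicarboxylate carrier, was not tested.

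Carriers of amino acids, carnitine and glutathione comprised 10 members, of which 8 were tested, 2 rose, 2 fell and 4 did not pass. Slc25a22, a glutamate carrier, had 35.3, 40.6 and 34.6 CPM in Fsk, against 47.2, 48.4 and 53.1 CPM in Ctrl. Every Fsk library was lower, and the gene fell by 0.42 on the log2 scale (edgeR adjusted p = 0.000129). Slc25a44, which imports branched-chain amino acids, averaged 86.0 ± 2.03 CPM in Fsk and 95.4 ± 4.83 CPM in Ctrl and fell by 0.15 (edgeR adjusted p = 0.0219). Its adjusted p was 0.129 without Ctrl A, 0.0683 without Ctrl B and 0.105 when TMM factors were dropped. Slc25a39 averaged 158 ± 2.72 CPM in Fsk and 145 ± 3.22 CPM in Ctrl, a log2 fold change of 0.12 (edgeR adjusted p = 0.0262). That call was lost without Fsk B (0.0628), Ctrl B (0.0781) or Ctrl C (0.0986), and with DESeq2 (0.0668).

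Slc25a29, a carrier of basic amino acids, was a low-abundance member with 4.33, 3.82 and 5.55 CPM in Fsk, against 2.03, 2.51 and 2.36 CPM in Ctrl. The groups did not overlap, and the log2 fold change was 0.97 ± 0.22 (SE, edgeR adjusted p = 0.00139). Slc25a15, the ornithine/citrulline carrier, had 38.7, 36.2 and 37.2 CPM in Fsk, against 39.1, 38.8 and 38.1 CPM in Ctrl, with a log2 fold change of -0.05 (edgeR adjusted p = 0.555). Also short of the threshold were the carnitine/acylcarnitine carrier Slc25a20 (log2 fold change -0.05), the glycine carrier Slc25a38 (-0.12) and Slc25a40 (0.16), a paralogue of the glutathione carrier. Slc25a2 and Slc25a18 were not tested.

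Carriers of cofactors, nucleotides and iron comprised 11 members, all tested, of which 5 rose, 1 fell and 5 did not pass. The pyrimidine nucleotide carriers supply the matrix with precursors for mitochondrial RNA and DNA. Slc25a33 (PNC1, chromosome 4, 149744036 to 149774267 of mm10, minus strand) had 55.3, 54.0 and 49.6 CPM in Fsk A, B and C, against 30.2, 30.4 and 35.7 CPM in Ctrl A, B and C. Every Fsk library was above every Ctrl library, and the log2 fold change was 0.72 ± 0.08 (SE, edgeR adjusted p = 2.83e-07). Of its annotated exon bases 14.9% overlap the antisense transcript Gm13068, which was not analysed here, and 87.4% of its 50-base stretches are unique. Its paralogue Slc25a36 (PNC2, chromosome 9, 97077011 to 97111041) had 31.0, 32.8 and 28.9 CPM in Fsk, against 33.7, 35.4 and 35.6 CPM in Ctrl. All Fsk values were lower, but the test was not passed (log2 fold change -0.17 ± 0.07 SE, edgeR adjusted p = 0.0631), except without Fsk B (0.0433).

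Forskolin acts through cyclic AMP, and the letters of the cAMP response element, TGACGTCA, were therefore searched in the promoter windows of the members. Windows came from RefSeq on GRCm38.p6, ran from 250 bases before to 50 bases after each start, and existed for 36 members, for 32 of them at the deposited start. Where a member had several windows, the one nearest the deposited start was counted. Printed below are the 250 bases before the start, 5′ to 3′ on the gene's strand, for the pyrimidine carrier pair and for a further window of Slc25a25, with cAMP response elements and the shorter core TGACG (on the reverse strand CGTCA) in capitals.
Slc25a33 (chr4:149774268-149774517, minus strand): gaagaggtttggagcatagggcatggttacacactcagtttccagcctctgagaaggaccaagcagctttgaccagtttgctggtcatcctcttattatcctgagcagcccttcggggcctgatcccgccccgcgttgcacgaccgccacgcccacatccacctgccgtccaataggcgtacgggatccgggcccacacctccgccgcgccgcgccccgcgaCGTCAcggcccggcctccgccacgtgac
Slc25a36 (chr9:97111042-97111291, minus strand): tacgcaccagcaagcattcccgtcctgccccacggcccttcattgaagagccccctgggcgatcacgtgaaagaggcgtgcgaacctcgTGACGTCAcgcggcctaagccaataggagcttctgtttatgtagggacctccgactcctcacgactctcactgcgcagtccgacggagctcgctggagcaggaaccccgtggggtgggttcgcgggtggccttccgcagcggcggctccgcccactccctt
Slc25a25 (chr2:32424067-32424316, minus strand): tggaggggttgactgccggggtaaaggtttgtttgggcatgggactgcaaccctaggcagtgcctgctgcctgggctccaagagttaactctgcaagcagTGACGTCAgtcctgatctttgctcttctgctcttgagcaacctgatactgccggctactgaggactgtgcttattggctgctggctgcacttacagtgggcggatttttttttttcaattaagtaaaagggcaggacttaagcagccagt
The full element stands at position -161 of Slc25a36, which did not pass the test, and at position -150 of the Slc25a25 window, whose start lies 27404 bases from the deposited one. Another match of the core in Slc25a33 crosses its start and so runs past the printed bases. No other member had the full element, while 1.79% of 32851 windows did. The shorter core, on either strand and also counted inside the full element, was found in 10 of the 36 members and in 20.8% of all windows. Shares of all windows count every start of a gene, whereas each member was counted once, so the units differ. By outcome, 2 of 10 members that rose, 2 of 6 that fell and 5 of 14 that did not pass held the core, with untested members left out. Of the other motifs searched on both strands, the palindromic consensus NRF1 site (0.971% of all windows) and the C/EBP-ATF element TGATGNAAN (3.95%) were in 0 members, and the ETS core CCGGAAGT (3.89%) was in 1 member, Slc25a20.

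The mitoferrins import iron for haem and iron-sulphur clusters. Slc25a28, mitoferrin-2, had 25.8, 24.9 and 23.3 CPM in Fsk, against 18.1, 19.1 and 16.7 CPM in Ctrl. It was higher in each Fsk library (log2 fold change 0.46 ± 0.09 SE, edgeR adjusted p = 0.000389). Slc25a37, mitoferrin-1, had 89.9, 91.5 and 74.2 CPM in Fsk, against 81.0, 78.8 and 70.0 CPM in Ctrl. Its groups overlapped, with Fsk C below the other Fsk libraries (log2 fold change 0.15, edgeR adjusted p = 0.0882), and without Fsk C the adjusted p was 0.00123 at a log2 fold change of 0.25.

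Among the cofactor carriers, the coenzyme A carrier Slc25a42 had 7.61, 5.74 and 6.41 CPM in Fsk, against 10.3, 8.07 and 10.04 CPM in Ctrl. Fsk A lay just under Ctrl B, so the groups did not overlap (log2 fold change -0.53 ± 0.16 SE, edgeR adjusted p = 0.00924). The call was lost without Fsk B (0.0527) or Ctrl A (0.0532). Slc25a16, which has been linked to coenzyme A, had 25.5, 26.6 and 27.7 CPM in Fsk, against 28.3, 26.8 and 28.0 CPM in Ctrl, and did not pass (edgeR adjusted p = 0.568). Slc25a32, the folate and FAD carrier, had 31.5, 32.9 and 30.1 CPM in Fsk, against 24.3, 26.2 and 24.5 CPM in Ctrl, and rose by 0.33 on the log2 scale (edgeR adjusted p = 0.00178). The NAD carrier Slc25a51 averaged 175 ± 6.02 CPM in Fsk and 149.7 ± 3.29 CPM in Ctrl (log2 fold change 0.22, edgeR adjusted p = 0.000346). Slc25a17, which carries cofactors across the peroxisomal membrane, averaged 81.1 ± 2.04 CPM in Fsk and 64.1 ± 2.61 CPM in Ctrl (log2 fold change 0.34, edgeR adjusted p = 4.29e-05). The S-adenosylmethionine carrier Slc25a26 (log2 fold change 0.17) did not pass. Of its annotated exon bases 3.0% overlap antisense Lrig1, which fell by 0.25 (edgeR adjusted p = 0.0155), and 94.9% of the 50-base stretches of Slc25a26 are unique.

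The uncoupling protein-like carriers were 3 members, of which 2 rose and 1 did not pass. Slc25a30 (KMCP1, chromosome 14, 75761999 to 75787037, minus strand) had 45.0, 46.2 and 40.1 CPM in Fsk, against 28.2, 31.6 and 29.1 CPM in Ctrl. It was higher in every Fsk library (log2 fold change 0.56 ± 0.08 SE, edgeR adjusted p = 7.65e-06). Slc25a14 (UCP5) had 11.9, 10.99 and 8.67 CPM in Fsk, against 11.4, 11.2 and 9.45 CPM in Ctrl, and did not pass (edgeR adjusted p = 0.883). Slc25a27 (UCP4) was the least abundant tested member by CPM, with 1.55, 1.89 and 1.52 CPM in Fsk, against 0.517, 0.703 and 1.06 CPM in Ctrl. The log2 fold change, 1.12 with an SE of 0.35 (edgeR adjusted p = 0.0125), rested on 60.5 counts in Fsk and 31 in Ctrl. It was no longer called without Fsk B (0.0594), Ctrl A (0.0714) or Ctrl B (0.0584), or with DESeq2 (0.0566).

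Members whose substrate is not assigned here numbered 7, of which 5 were tested, 2 rose, 1 fell and 2 did not pass. Slc25a45 (chromosome 19, 5877822 to 5885768, plus strand) had 13.4, 16.3 and 15.3 CPM in Fsk, against 7.35, 11.4 and 7.32 CPM in Ctrl. Ctrl B stood above the other Ctrl libraries but below all Fsk libraries (log2 fold change 0.78 ± 0.15 SE, edgeR adjusted p = 0.000372). Slc25a43 (chromosome X, 36743632 to 36777307, plus strand) had 6.52, 7.82 and 8.38 CPM in Fsk, against 12.1, 12.99 and 11.5 CPM in Ctrl. It was lower in every Fsk library (log2 fold change -0.68 ± 0.13 SE, edgeR adjusted p = 0.000344). The 250 bases before the starts of these members, which hold the largest rise and fall among those above 5 CPM, contain none of the motifs searched.
Slc25a45 (chr19:5877572-5877821, plus strand): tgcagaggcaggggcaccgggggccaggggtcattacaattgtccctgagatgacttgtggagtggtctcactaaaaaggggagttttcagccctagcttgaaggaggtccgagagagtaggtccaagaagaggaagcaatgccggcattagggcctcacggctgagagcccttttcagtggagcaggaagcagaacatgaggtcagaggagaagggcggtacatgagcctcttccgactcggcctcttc
Slc25a43 (chrX:36743382-36743631, plus strand): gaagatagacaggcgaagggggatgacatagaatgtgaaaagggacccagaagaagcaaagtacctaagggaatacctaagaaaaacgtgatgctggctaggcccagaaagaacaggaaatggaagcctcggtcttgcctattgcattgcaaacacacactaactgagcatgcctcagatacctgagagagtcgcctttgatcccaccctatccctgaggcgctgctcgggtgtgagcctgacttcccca
Slc25a35 averaged 3.14 ± 0.859 CPM in Fsk and 1.998 ± 0.185 CPM in Ctrl, with a log2 fold change of 0.66 (edgeR adjusted p = 0.0413) that failed whenever any library but Fsk C was left out (0.0759 to 0.161) and with DESeq2 (0.106) or limma-voom (0.0604). Antisense Rangrf overlaps 14.8% of the exon bases annotated for Slc25a35 over all transcripts and did not pass itself (edgeR adjusted p = 0.378). The deposited Slc25a35 transcript ends at 68972515 and Rangrf starts at 68972484, so few of the counted bases overlap. All 50-base stretches of Slc25a35 are unique. Slc25a47 (log2 fold change -0.22) and Slc25a53 (-0.29) did not pass, and Slc25a34 and Slc25a48 were not tested. Slc25a46, which sits in the outer membrane and acts in mitochondrial fusion, averaged 104.5 ± 0.751 CPM in Fsk and 98.1 ± 2.25 CPM in Ctrl and did not pass (edgeR adjusted p = 0.106).

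**Figure D3:**
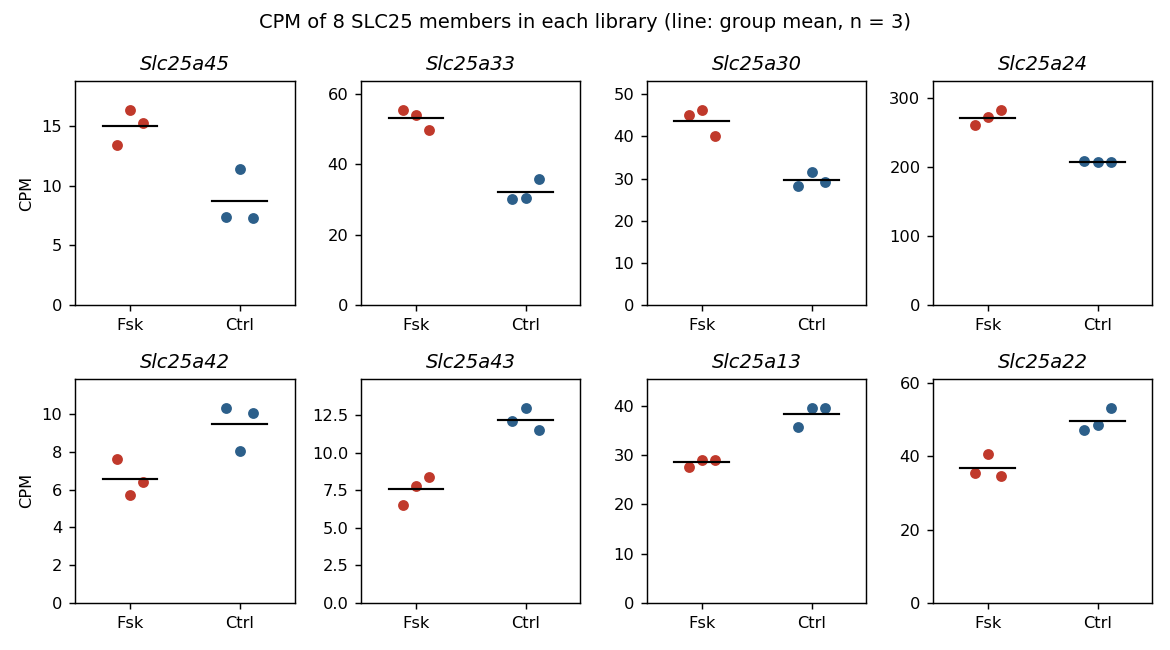
CPM of 8 members in each library, on axes from 0, with Fsk left of Ctrl, a point per library and a line at the group mean. Slc25a24, Slc25a30, Slc25a33 and Slc25a45 stand higher in every Fsk library, and Slc25a13, Slc25a22, Slc25a42 and Slc25a43 stand lower.

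Paralogues with a shared substrate or a related role were then compared within each library, since the ratio of their counts does not depend on library scaling. Over 10 pairs, the exact two-sided permutation test with 3 against 3 libraries cannot give a p below 0.1, and 9 pairs reached that value (adjusted p = 0.111 over the 10 pairs), so none passes a threshold of 0.05. The share of other gene pairs with separated ratios was not computed, so the 9 have no background beside them. Taken singly, 57.3% of all tested genes did not overlap. These pairs were chosen with earlier results of these data known. Slc25a33 over Slc25a36 was 1.78, 1.64 and 1.71 in Fsk A, B and C, against 0.897, 0.861 and 1.00 in Ctrl A, B and C. These are ratios of counts, not scaled by length, and the log2 ratio differed by 0.90. Per kilobase of exon, Slc25a33 stood at 28.4 CPM in Fsk and 17.2 CPM in Ctrl, and Slc25a36 at 10.1 CPM in Fsk and 11.4 CPM in Ctrl, so Slc25a33 had the higher level in both groups. Aralar over citrin (Slc25a12 over Slc25a13) was 2.44, 2.32 and 2.63 in Fsk, against 1.74, 1.56 and 1.59 in Ctrl. Here too no library of one group reached the other, and the log2 ratio differed by 0.60.

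Slc25a15 over Slc25a29 was 8.85, 9.39 and 6.67 in Fsk, against 18.9, 15.2 and 15.9 in Ctrl, a log2 difference of -1.01 that rests on the low counts of Slc25a29. The ratio of Slc25a24 to Slc25a25 was 4.36, 4.30 and 4.09 in Fsk, against 2.94, 3.0 and 3.21 in Ctrl (log2 difference 0.48). Slc25a23 over Slc25a25, which shares its denominator with that ratio, was 0.371, 0.361 and 0.345 in Fsk, against 0.416, 0.426 and 0.420 in Ctrl (-0.23). Set against Slc25a25, Slc25a24 was thus higher and Slc25a23 lower in every Fsk library.

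Slc25a28 over Slc25a37 was 0.288, 0.272 and 0.314 in Fsk, against 0.223, 0.242 and 0.239 in Ctrl (log2 difference 0.31). For Slc25a14 over Slc25a30 the ratios were 0.265, 0.239 and 0.217 in Fsk, against 0.407, 0.355 and 0.325 in Ctrl (-0.59). Slc25a16 over Slc25a42 was 3.34, 4.61 and 4.29 in Fsk, against 2.73, 3.31 and 2.78 in Ctrl (0.46), with Fsk A only just above Ctrl B. The ADP/ATP carriers showed the smallest difference of the 9 pairs, with Slc25a4 over Slc25a5 at 1.29, 1.30 and 1.31 in Fsk, against 1.24, 1.24 and 1.21 in Ctrl (0.08). Slc25a39 over Slc25a40 overlapped between groups (log2 difference -0.04, exact p = 0.8).

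**Figure D4:**
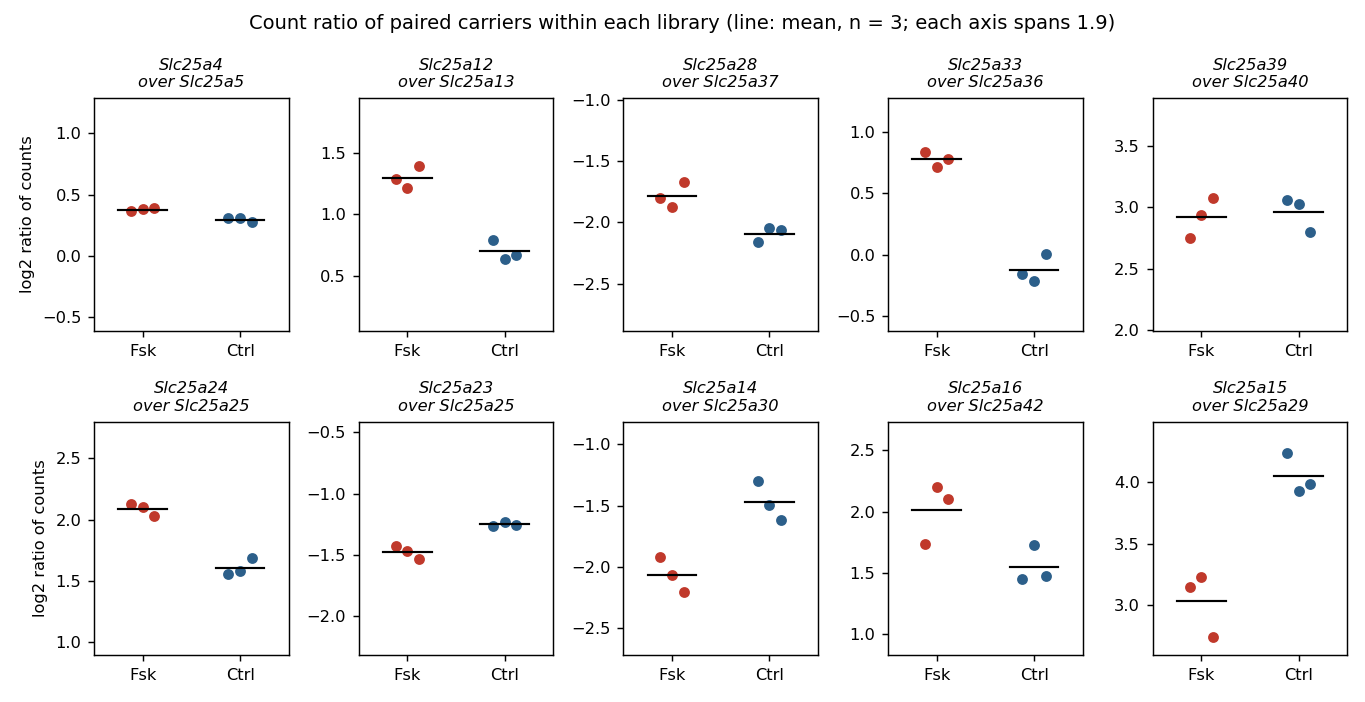
Log2 ratio of counts of paralogue pairs in each library, with Fsk left of Ctrl for each of 10 pairs, a line at the mean, and axes of equal span. The groups do not overlap in 9 pairs, a count for which no share over other gene pairs was computed. The widest gaps are those of Slc25a15 over Slc25a29 and Slc25a33 over Slc25a36.

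Genes that work beside the carriers were followed in 8 lists, each with the genes of smallest adjusted p named. Across all tested genes 24.8% rose and 25.1% fell, and no list was tested against these shares. Family members under other symbols gave 3 tested genes of 5, of which 2 rose and 0 fell, with a median log2 fold change of 0.11. Mtch1 averaged 184 ± 14.8 CPM in Fsk and 166 ± 2.28 CPM in Ctrl (edgeR adjusted p = 0.0175), and Mtch2 averaged 127 ± 3.13 CPM in Fsk and 117 ± 0.946 CPM in Ctrl (0.0384). Mtch1 was not called without Fsk C (0.0955), Ctrl A (0.056) or Ctrl B (0.0676), and Mtch2 was not called without Fsk B (0.147) or any one Ctrl library (0.0801 to 0.116). The uncoupling protein Ucp2 averaged 16.6 ± 2.58 CPM in Fsk and 18.4 ± 1.72 CPM in Ctrl (edgeR adjusted p = 0.287, and 0.0372 as a fall without Fsk C). The route that imports carriers through the outer membrane and the TIM22 complex had 13 tested genes, of which 1 rose, 1 fell and 11 did not pass (median 0.06). They were the small chaperones Timm9, at 17.1 ± 1.57 CPM in Fsk and 11.9 ± 0.933 CPM in Ctrl (edgeR adjusted p = 0.000911), and Timm13, at 59.8 ± 1.94 CPM in Fsk and 69.7 ± 3.30 CPM in Ctrl (0.00386). Timm8b came next with a log2 fold change of 0.16 (edgeR adjusted p = 0.0592, and 0.0478 without Fsk C). Without Fsk A, 2 genes of this list fell, and without Fsk C, 2 rose and 2 fell.

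Other transporters and channels of the mitochondrial membranes numbered 23, of which 8 rose, 5 fell and 10 did not pass (median log2 fold change 0.07). Tspo, an outer membrane protein that binds cholesterol, averaged 141 ± 3.43 CPM in Fsk and 103 ± 1.89 CPM in Ctrl (edgeR adjusted p = 1.49e-07). Micu2, a gatekeeper of the calcium uniporter, averaged 100.1 ± 2.82 CPM in Fsk and 76.7 ± 0.940 CPM in Ctrl (3.04e-06), and Letm1, a cation exchanger, averaged 103.5 ± 1.39 CPM in Fsk and 82.4 ± 2.79 CPM in Ctrl (1.75e-05). Without Ctrl B or without Ctrl C, 5 genes of this list rose.

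Partner enzymes of the malate-aspartate shuttle and of citrate export numbered 15, of which 3 rose, 3 fell and 9 did not pass (median log2 fold change 0.01). Mitochondrial Got2 averaged 189 ± 13.1 CPM in Fsk and 246 ± 6.05 CPM in Ctrl (log2 fold change -0.38, edgeR adjusted p = 3.54e-06), whereas cytosolic Got1 averaged 98.1 ± 4.09 CPM in Fsk and 76.1 ± 1.11 CPM in Ctrl (0.36, adjusted p = 8.62e-06). Mdh2, the matrix malate dehydrogenase, averaged 272 ± 5.69 CPM in Fsk and 227 ± 5.39 CPM in Ctrl (0.26, edgeR adjusted p = 3.33e-05). As with the carriers of this shuttle, calls in both directions occurred.

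The carnitine shuttle and fatty acid oxidation list had 15 tested genes, of which 6 rose, 1 fell and 8 did not pass (median log2 fold change 0.07). Cpt1a, which forms acylcarnitine at the outer membrane, averaged 298 ± 2.72 CPM in Fsk and 226 ± 3.78 CPM in Ctrl (0.40, edgeR adjusted p = 1.2e-07). Cpt2, which reverses that step in the matrix, averaged 32.6 ± 3.94 CPM in Fsk and 23.3 ± 0.948 CPM in Ctrl (0.49, edgeR adjusted p = 0.000223). The gene that fell was Cpt1c, at 42.4 ± 0.356 CPM in Fsk and 68.1 ± 2.46 CPM in Ctrl (-0.68, edgeR adjusted p = 1.86e-08). The carrier between these steps, Slc25a20, averaged 46.1 ± 3.82 CPM in Fsk and 47.6 ± 3.09 CPM in Ctrl (edgeR adjusted p = 0.617). Without Fsk A or without Fsk C, 2 genes of this list fell.

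The mitochondrial folate, glycine and proline enzymes numbered 14, of which 7 rose, 3 fell and 4 did not pass, with a median log2 fold change of 0.29. Shmt2, which makes glycine from serine in the matrix, averaged 250.5 ± 6.23 CPM in Fsk and 126 ± 0.286 CPM in Ctrl (0.99, edgeR adjusted p = 9.63e-13). Mthfd2, the next enzyme of the folate cycle, averaged 174 ± 4.81 CPM in Fsk and 74.9 ± 5.16 CPM in Ctrl (1.21, edgeR adjusted p = 1.19e-12). Aldh1l2, which oxidises formyl-folate in mitochondria, averaged 95.1 ± 6.25 CPM in Fsk and 33.2 ± 3.33 CPM in Ctrl (1.52, edgeR adjusted p = 4.51e-12). The folate carrier Slc25a32 had a log2 fold change of 0.33, smaller than those of these 3 enzymes, and the glycine carrier Slc25a38 had one of -0.12 that did not pass. Without Fsk B, Ctrl B or Ctrl C, 1 gene of this list fell.

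Iron-sulphur cluster and haem synthesis genes numbered 20, of which 10 rose, 2 fell and 8 did not pass (median log2 fold change 0.19). Fdx1, a ferredoxin, averaged 54.0 ± 0.675 CPM in Fsk and 36.4 ± 1.47 CPM in Ctrl (0.57, edgeR adjusted p = 5.51e-07). Nfs1, the cysteine desulfurase, averaged 72.3 ± 3.71 CPM in Fsk and 58.6 ± 1.71 CPM in Ctrl (0.30, adjusted p = 0.000232). Alas1, the first enzyme of haem synthesis, averaged 189 ± 5.21 CPM in Fsk and 162 ± 5.09 CPM in Ctrl (0.22, edgeR adjusted p = 0.000332). Without Ctrl C, 6 genes of this list rose.

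Regulators of mitochondrial biogenesis numbered 14, of which 4 rose, 3 fell and 7 did not pass (median log2 fold change 0.07). Gabpa, an ETS factor, averaged 97.0 ± 5.28 CPM in Fsk and 119 ± 1.11 CPM in Ctrl (-0.29, edgeR adjusted p = 7.5e-05). Esrra, a nuclear receptor of mitochondrial genes, averaged 55.0 ± 1.24 CPM in Fsk and 68.2 ± 1.38 CPM in Ctrl (-0.31, edgeR adjusted p = 0.00013). Their coactivator Ppargc1a was scarce, at 2.29 ± 1.09 CPM in Fsk and 0.756 ± 0.0760 CPM in Ctrl (log2 fold change 1.59, edgeR adjusted p = 0.0018).

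**Figure D5:**
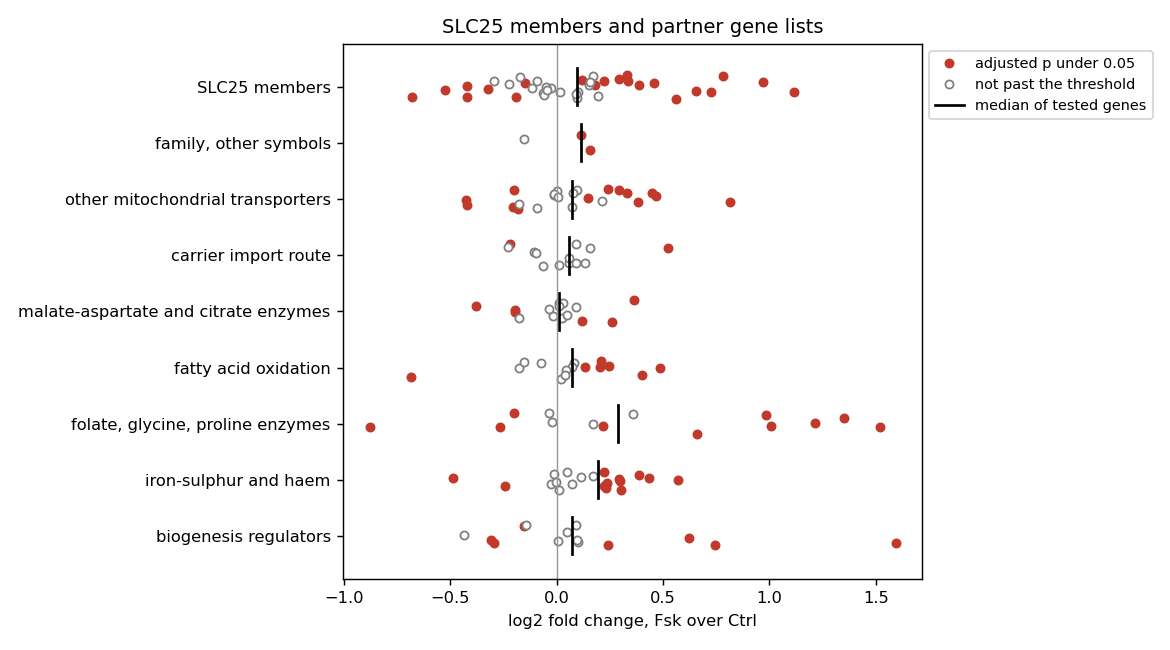
Log2 fold change (Fsk over Ctrl) of the tested SLC25 members and of every tested gene in the 8 lists of partner genes, with filled circles for an adjusted p under 0.05 and a line at each median. The members have a median of 0.10, the folate, glycine and proline enzymes have the highest median at 0.29, and the malate-aspartate and citrate partners sit at 0.01.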

How the data were processed

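Polyadenylated RNA of 6 libraries was analysed. The authors deposited 1 table of unnormalized expected counts per gene, made with STAR and HOMER on mm10 per the submitters' processing notes. The tools are named with versions and annotation release not given in the sources used here. All values are multiples of 0.5, 31.8% are not whole, and all were rounded to whole numbers before testing. Strand is not stated in the labels.

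With edgeR 4.0.16 in R 4.3.3, filterByExpr (minimum count 10, minimum total 15) left 13357 genes. Libraries were scaled by TMM, and Fsk was compared with Ctrl by the two-sided quasi-likelihood test with group as the only term, with Benjamini-Hochberg adjustment over all tested genes and a threshold of 0.05. The coefficient of variation between replicates was 4.44%. SE values come from the quasi-likelihood F statistic. Pair ratios used log2 of counts plus 0.5 and an exact permutation test. Alternatives used limma 3.58.1 and DESeq2 1.42.0. The fit was tested on simulated data.

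Members, roles, pairs and lists were chosen with earlier results of these data known. Values in every library are given for called members with an absolute log2 fold change of at least 0.5 and a mean of at least 5 CPM, for the 3 members of highest length-scaled level and for both genes of each pair whose ratio did not overlap. Slc25a10, Slc25a11, Slc25a22, Slc25a27 and Slc25a32 were given more fully after their values were seen. 1 of the members is counted but not reported here by name. Of each partner list up to 3 genes with the smallest adjusted p are named. Coordinates count from 1, since 15737 of 24224 deposited starts were identical to RefSeq. Uniqueness is the share of 50-base stretches found in no other annotated gene. For Slc25a27 it covered 2846 stretches, whereas the deposited exon length is 7121 bases, so much of the counted sequence was not checked. Exon overlap is taken over all annotated exons of a gene, which can hold more bases than the counted transcript.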

Additional observations from a re-analysis of the deposited data

How the results depend on the processing

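The 14 members that rose numbered 10 to 14 when 1 library was left out and 11 (DESeq2) to 18 (library size alone, and upper-quartile factors) under the other settings. The 7 that fell numbered 5 to 9 and 6 to 7 in these settings. Over all genes, 3319 rose, and 2773 to 3369 did so with 1 library left out. Of the 21 called members, 14 kept their call and direction under all 16 alternatives, and 7 lost it under at least 1 (Slc25a1, Slc25a12, Slc25a27, Slc25a35, Slc25a39, Slc25a42 and Slc25a44). No called member changed direction. Another 7 passed under some setting. Adjusted p ranged over the alternatives from 0.00123 to 0.359 for Slc25a37, from 0.0433 to 0.193 for Slc25a36, from 0.0051 to 0.0906 for Slc25a12, from 0.00188 to 0.0532 for Slc25a42 and from 0.00939 to 0.0714 for Slc25a27. With library size alone, Slc25a3, Slc25a4, Slc25a37 and Slc25a46 passed as higher. That scaling put the median of all genes at 0.05 on the log2 scale, against 0.01 with TMM, and 58.1% of calls higher, against 49.8%. Thinning every library to 10890008 counts, chosen after seeing the data, left 13 that rose and 7 that fell. In the partner lists, 5 of the other transporters rose with DESeq2 and 3 genes of the import route rose with library size alone or upper-quartile factors. The causes of these shifts were not tested.

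Libraries of the same letter were correlated at 0.0349 (A), 0.0317 (B) and 0.0303 (C) in their deviations from the group means, so the letters were not taken as a pairing. Every library correlated best with its own letter, a hint from the data only. With the letter as a replicate block, 17 members rose and 7 fell, and 3303 of all genes rose. The 3 added were Slc25a3 (edgeR adjusted p = 0.0193), Slc25a4 (0.0256) and Slc25a37 (0.0227). The differences in pair ratios moved by less than 1 SD with counts rounded down. Leaving out 1 of 3 libraries cannot move these differences by 1 SD, by arithmetic, so that setting says nothing on their stability. A replicate block cannot move them, since it gives the same mean difference by arithmetic. At this depth 8 members were too low to test.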
